A study of Mus musculus with 8 samples.

Results

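Late activity-response genes are switched on in neurons after the first wave of transcription factors, and many of their products leave the cell. Described here are 10 such genes in mouse cingulate cortex (*Bdnf*, *Inhba*, *Ptgs2*, *Nptx2*, *Pcsk1*, *Scg2*, *Vgf*, *Nr4a2*, *Nr4a3* and *Gadd45b*), taken by symbol from a list of delayed response genes. All 10 were present among the 53379 genes of the deposited count table, and all 10 were among the 16914 genes that passed the filter on low counts. The samples were 4 from wild-type (WT, *Mvp*+/+) and 4 from *Mvp* knockout (Mvp KO, *Mvp*-/-) male mice, all without treatment according to the labels. *Mvp* encodes the major vault protein, the main component of the vault ribonucleoprotein particle, and lies in the interval that matches human 16p11.2, a locus associated with autism. The knockout allele is a gene trap on a C57BL/6N background, in which a cassette with a splice acceptor and a polyadenylation signal sits in the first intron of *Mvp* in every cell. The age of these mice is not given in the sources used here, and nothing states that the samples of a genotype came from separate dissections or days, so p-values measure the spread between these samples.

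When a neuron fires, calcium entering the cell activates kinases that act on transcription factors already present, among them CREB, SRF and MEF2. Rapid early genes such as *Fos* and *Npas4* respond within minutes, and their products, with CREB, help to drive later genes that change synapses, excitability and neuropeptide release. The boundary is not sharp: *Nr4a2*, *Nr4a3* and *Gadd45b* also respond early in many cells and act in the nucleus, while the other 7 encode secreted proteins, proteins of the secretory granule or, for *Ptgs2*, a membrane enzyme that makes a secreted lipid. In cortex, BDNF, activin A and NPTX2 act on excitatory synapses, and the granins and VGF are cargo of dense-core vesicles.

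Several of these genes are textbook targets of CREB, which binds the cAMP response element (CRE). The promoter windows of RefSeq on GRCm38.p6, from 250 bases before to 50 bases after each transcription start, were therefore searched for the full CRE (TGACGTCA) and its core (TGACG), both on either strand. Windows were at hand for 8 of the 10 genes, 14 windows in all, of which *Bdnf* has 7 because it starts from several first exons. The full CRE was found in *Scg2* and *Pcsk1*, that is in 2 of 14 windows, against 1.79% of all 32851 windows. The CRE core, which every full CRE holds once on each strand, was found in 6 of 14 windows, against 20.8% of all windows. These windows belong to 6 of the 8 genes, a count for which no share over all genes is given. *Bdnf* is counted with 1 of its 7 windows. The stretches that hold these matches follow because they are what these promoters share, with each match in capitals, 5′ to 3′ on the strand of the gene, and with positions counted from the transcription start.

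*Bdnf*, the third window, chr2:109692389-109692417, plus strand: tatgacagctcaCGTCAaggcagcgtgga

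*Ptgs2*, chr1:150100032-150100061, plus strand: gagtcaccactaCGTCAcgtggagtccgct

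*Pcsk1*, chr13:75089767-75089823, plus strand: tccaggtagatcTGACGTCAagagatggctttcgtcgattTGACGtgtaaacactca

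*Scg2*, chr1:79440076-79440105, minus strand: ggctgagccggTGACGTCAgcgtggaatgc

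*Nr4a2*, chr2:57124098-57124159, minus strand: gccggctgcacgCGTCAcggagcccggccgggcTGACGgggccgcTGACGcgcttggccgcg

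*Nr4a3*, chr4:48045062-48045116, plus strand: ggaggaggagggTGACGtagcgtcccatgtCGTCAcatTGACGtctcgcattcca

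The full CRE lay at bases -68 to -61 in *Scg2* and at -78 to -71 in *Pcsk1*. The *Scg2* stretch lies before the RefSeq start but inside an exon of the GENCODE vM21 annotation, and the *Ptgs2* stretch, with its CRE core at bases 14 to 18, lies in the first exon. *Nr4a2* and *Nr4a3* each held 4 CRE cores, of which 3 are shown. No CRE core was found in the windows of *Inhba* and *Gadd45b*, which says only that these letters are not in these windows. The AP-1 site (TGANTCA), bound by FOS and JUN, was found in 1 window, the second of *Bdnf*, against 7.81% of all windows, and the CArG box, bound by SRF, in 0 of 14 against 1.63%. A match is a description of the sequence, since binding was not measured.

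The total count per sample lay between 28456504 and 42854368. WT replicate 4 stood apart: its score was 71.5 in a principal component analysis (leading component), and those of the other 7 libraries were between -20.4 and -2.78. It had 1687 genes, of 16914, that were 2-fold or more away from the level typical of the remaining libraries (their median), compared with 144 to 520 such genes in each of the others. The genotype comparison of the 10 genes is therefore given with and without it. The targeted gene followed the labels: the level of *Mvp* was 6.81, 7.12, 7.89 and 5.49 CPM (counts divided by the library's total in units of 1e+06, after scaling with TMM factors) in WT replicates 1 to 4 and 1.45, 1.44, 2.13 and 1.51 CPM in Mvp KO replicates 1 to 4. *Mvp* was the only gene past an adjusted p of 0.05, with a log2 fold change (Mvp KO minus WT) of -2.06 ± 0.19 (SE) and an adjusted p of 0.0162 in edgeR's quasi-likelihood test, and of 0.00446 without WT replicate 4. Markers of cortical excitatory neurons, such as *Slc17a7* and *Neurod6*, summed to between 1731 and 3277 CPM, while markers of dentate granule cells, choroid plexus and striatal neurons summed to at most 23.3, 8.63 and 80.4 CPM.

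The highest level of 7 genes was in WT replicate 4, and *Bdnf*, *Inhba*, *Ptgs2* and *Nptx2* stood out furthest (the plot of CPM by gene and sample). *Bdnf* encodes brain-derived neurotrophic factor, the ligand of TrkB. Its level was 66.6, 74.3, 72.1 and 599.5 CPM in WT replicates 1 to 4 and 57.0, 43.4, 75.1 and 86.9 CPM in Mvp KO replicates 1 to 4. WT replicate 4 was 8.31-fold above the median of the other 7, while the other WT samples lay inside the range of the Mvp KO samples. *Inhba* encodes the subunit that pairs with itself to form activin A, a TGF-beta family ligand. Its level was 21.9, 21.8, 28.7 and 320.6 CPM in WT and 16.0, 18.6, 29.5 and 34.9 CPM in Mvp KO. WT replicate 4 was 14.6-fold above the median of the others, and the remaining samples of both genotypes overlapped.

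**Figure D1:**
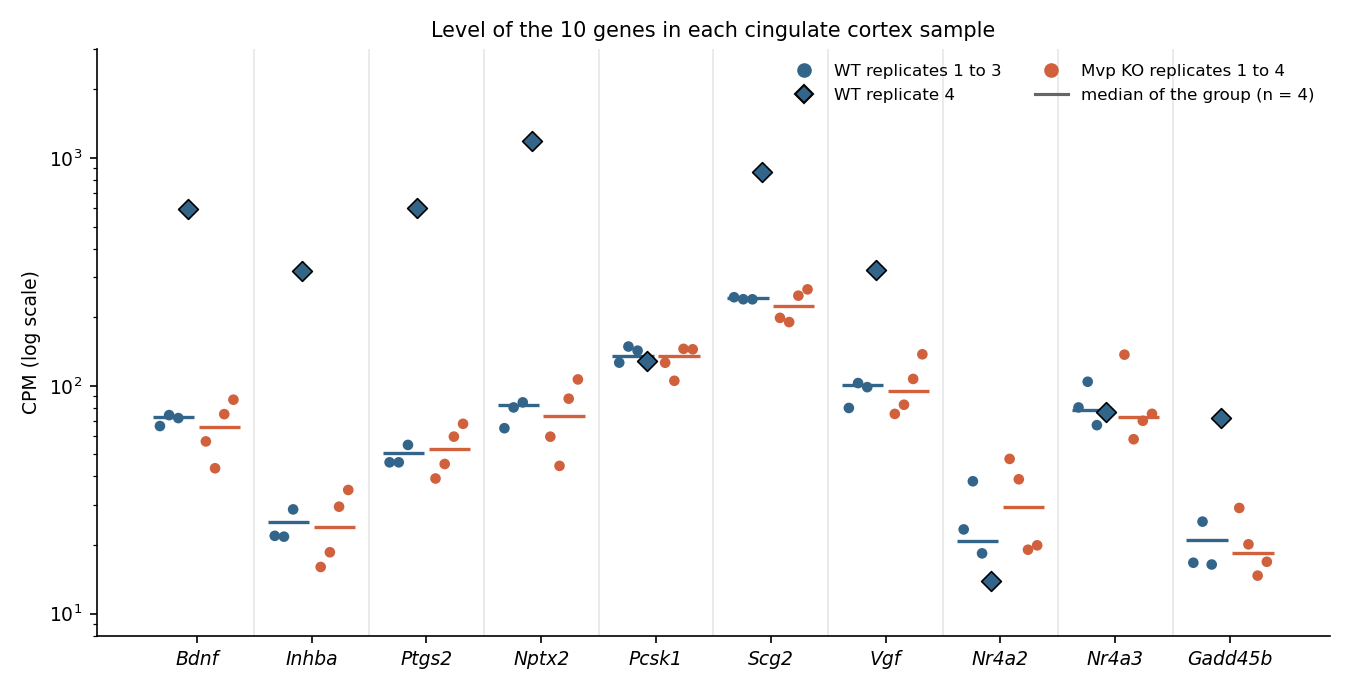
Level of each gene (CPM, log scale) in the 4 WT and 4 Mvp KO samples, 1 point per sample, with WT replicate 4 as an outlined diamond and a bar at the median of each group. The diamond is the highest point for 7 of the 10 genes and the lowest for *Nr4a2*, and the other samples of both genotypes overlap for every gene.

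*Ptgs2* encodes cyclooxygenase 2, the inducible enzyme of prostaglandin synthesis. Its level was 46.1, 46.1, 55.0 and 602.0 CPM in WT and 39.2, 45.4, 59.8 and 68.1 CPM in Mvp KO. Without WT replicate 4, which was 13.1-fold above the median of the others, the levels spanned 1.74-fold. *Nptx2* encodes neuronal pentraxin 2 (NARP), which is secreted and clusters AMPA receptors. Its level was 65.1, 80.3, 84.6 and 1190.3 CPM in WT and 59.8, 44.5, 87.8 and 106.6 CPM in Mvp KO. It had the widest range of the 10 genes, with WT replicate 4 14.8-fold above the median of the others and 26.8-fold above the lowest sample. Its level in Mvp KO replicates 3 and 4 was above that in all WT samples but replicate 4.

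Of the genes of the dense-core vesicle, *Scg2* and *Vgf* shared this pattern and *Pcsk1* did not. *Scg2* encodes secretogranin II, a granin that is cleaved into peptides such as secretoneurin. Its level was 245, 240, 240 and 864 CPM in WT and 199, 190, 249 and 265 CPM in Mvp KO, so that WT replicates 1 to 3 differed by less than the spread of the Mvp KO samples. *Vgf* encodes a neuropeptide precursor induced by nerve growth factor. Its level was 79.9, 103, 98.6 and 321 CPM in WT and 75.2, 82.6, 107 and 137 CPM in Mvp KO. WT replicate 4 was 3.60-fold above the median of the others for *Scg2* and 3.26-fold for *Vgf*. *Pcsk1* encodes prohormone convertase 1/3, which cleaves such precursors. Its level was 126, 149, 143 and 129 CPM in WT and 126, 105, 145 and 145 CPM in Mvp KO, and it had the narrowest range of the 10, 1.41-fold. WT replicate 4 was the fifth from the top for *Pcsk1*, 0.903 times the median of the others. *Scg2* and *Pcsk1*, the genes whose windows hold the full CRE shown above, thus differed in that sample.

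The 3 nuclear genes did not move together in WT replicate 4. *Nr4a2* (NURR1) and *Nr4a3* (NOR1) encode orphan nuclear receptors, transcription factors set mainly by their own level. The level of *Nr4a2* was 23.4, 38.1, 18.4 and 13.97 CPM in WT and 47.7, 38.9, 19.1 and 19.9 CPM in Mvp KO. WT replicate 4 was the lowest of the 8 samples, at 0.597 times the median of the others. The level of *Nr4a3* was 80.3, 104, 67.2 and 76.9 CPM in WT and 137, 58.3, 70.2 and 75.3 CPM in Mvp KO, with WT replicate 4 in the middle and Mvp KO replicate 1 the highest. *Gadd45b* encodes a stress sensor linked to active DNA demethylation. Its level was 16.7, 25.3, 16.4 and 72.4 CPM in WT and 29.1, 20.1, 14.7 and 16.9 CPM in Mvp KO. WT replicate 4 was 4.29-fold above the median of the others, and the remaining samples of the genotypes overlapped. *Gadd45b* sided with the secreted group in that sample, whereas *Nr4a2* and *Nr4a3*, whose windows hold several CRE cores, did not.

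Over all samples, 7 of the 10 genes were highest in WT replicate 4, against 29.2% of all genes tested. The same 7 were at least 2-fold above the median of the other samples there, against 4.19%. The median of the 10 folds in that sample was 3.95, beside 0.97 for all genes. The median fold range (highest over lowest CPM) was 4.74 for the 10 genes and 1.53 for all genes over the 8 samples, and 1.99 and 1.33 over the 7 samples without WT replicate 4. Without that sample, 4 of the 10 genes (*Inhba*, *Nptx2*, *Nr4a2* and *Nr4a3*) still spanned 2-fold or more, against 17.4% of all genes. The counts behind these levels ran from 440 (*Nr4a2* in WT replicate 4) to 37489 (*Nptx2* in WT replicate 4) per sample, so counting error is small beside these ranges.

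Compared per kb of exon and as the median of the 7 samples without WT replicate 4, *Scg2* had the highest level at 95.3 CPM per kb. *Vgf* followed at 33.2, *Nptx2* at 31.7, *Pcsk1* at 25.4, *Nr4a3* at 12.6, *Bdnf* at 11.6, *Gadd45b* at 10.6, *Ptgs2* at 10.1, *Nr4a2* at 5.77 and *Inhba* at 3.43 CPM per kb. Only *Scg2* was above its neighbour in this order in 8 of 8 samples with ranges that did not overlap over the 7, by 2.28- to 3.62-fold. Every other pair of neighbours overlapped. In WT replicate 4 the order was another, with *Nptx2* at 469 CPM per kb above *Scg2* at 343, and *Ptgs2* at 131.

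The question of the design is whether loss of *Mvp* alters expression in the cingulate cortex. None of the 10 genes passed an adjusted p of 0.05 in edgeR's test, with 0.00591% of all genes passing it, and the lowest adjusted p among them was 0.969. At an unadjusted p under 0.05 there was 1 of 10, *Nptx2*, against 1.56% of all genes, and it was 0 of 10 without WT replicate 4, against 1.34%. For 0 of the 10 did all samples of one genotype lie above all of the other, against 1.52% of all genes, and without WT replicate 4 it was again 0 of 10, against 2.8%. Two-sided exact permutation tests on log2 CPM gave p between 0.286 and 0.943 with all samples, where they cannot give less than 0.0286. Without WT replicate 4 the same tests gave p between 0.514 and 0.971. There the lowest p they can give is 0.0571, the value for *Mvp*, so no gene could have come under 0.05.

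The direction of the difference depended on WT replicate 4. With all samples 8 of the 10 genes were lower in Mvp KO, and without it 4 of 10 were. The median log2 fold change of the 10 was -0.75 with it, beside -2.07e-06 for all genes, and 0.031 without it, beside 0.0033. *Nptx2* had the largest value, -2.25 ± 0.95 (SE, unadjusted p = 0.0413, adjusted p = 0.969, edgeR), which became -0.037 ± 0.29 (adjusted p = 0.9999) without that sample. *Inhba* went from -1.99 ± 0.89 to 0.037 ± 0.28, *Ptgs2* from -1.82 ± 0.85 to 0.12 ± 0.19 and *Bdnf* from -1.63 ± 0.73 to -0.11 ± 0.21 on the log2 scale. *Pcsk1* gave the tightest estimate with all samples, -0.068 ± 0.11, and *Nr4a2* was the gene with the most positive one, 0.42 ± 0.37, and 0.24 ± 0.40 without WT replicate 4.

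The intervals state what these samples leave possible (the plot of log2 fold changes with and without WT replicate 4). Without that sample, the 95% interval of the Mvp KO to WT ratio ran from 0.783 to 1.12 for *Scg2*, from 0.783 to 1.12 for *Pcsk1*, from 0.655 to 1.305 for *Bdnf* and from 0.804 to 1.46 for *Ptgs2*. It was widest for *Nr4a2*, from 0.615 to 2.27. In this fit of 3 against 4 samples, a level of 0.5 times WT thus lay outside the interval for all 10 genes, and a level of 2 times WT for 9 of them, with *Nr4a2* as the exception. This rests on leaving out 1 library after its values had been seen: with all 8 samples, 0.5 times WT lay outside the interval for 3 of the 10 genes (*Pcsk1*, *Nr4a2* and *Nr4a3*), and 2 times WT for 9. The intervals then ran from 0.0477 to 0.927 for *Nptx2*, from 0.104 to 1.006 for *Bdnf*, from 0.0757 to 1.06 for *Ptgs2*, from 0.295 to 1.09 for *Scg2* and from 0.803 to 1.13 for *Pcsk1*.

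**Figure D2:**
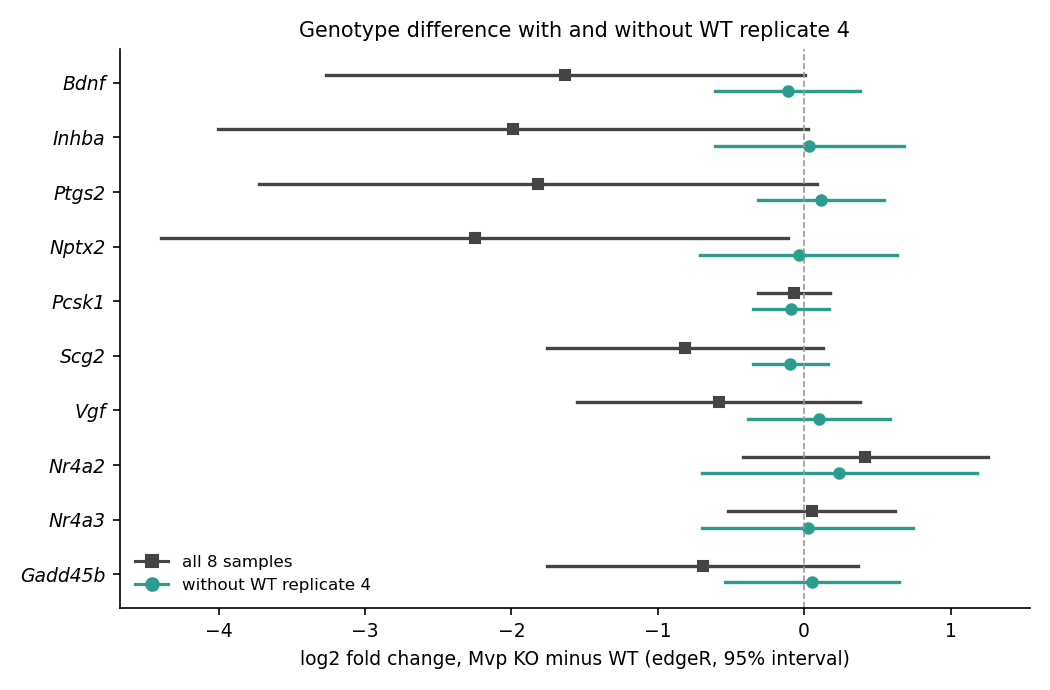
Log2 fold change of each gene (Mvp KO minus WT, edgeR) with its 95% interval, for all 8 samples (squares) and for the 7 samples without WT replicate 4 (circles). The squares of *Bdnf*, *Inhba*, *Ptgs2* and *Nptx2* lie between -2.25 and -1.63, while all circles lie between -0.11 and 0.24 with narrower intervals for the 7 genes that are highest in WT replicate 4.

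The spread among the Mvp KO samples was greater than among WT replicates 1 to 3 for all 10 genes, as a coefficient of variation of CPM. For *Bdnf* it was 29.3% (n = 4) in Mvp KO and 5.65% (n = 3) in WT without replicate 4, for *Scg2* 16.3% and 1.19%, and for *Nptx2* 37.3% and 13.3%. These values were not tested against each other, and WT replicate 4 was left out after its values had been seen: with it, the WT values were 130%, 78.4% and 157%. The share of all genes with a greater spread in Mvp KO is not given here, so the difference is not shown to be particular to the 10 genes. Of all genes tested, 245 to 520 were 2-fold or more from the median of the others in each Mvp KO sample. In WT replicates 1 to 3 it was 144 to 269.

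Among the 7 samples without WT replicate 4, the genes of the secreted group tended to be high and low in similar samples, though not in the same order. Mvp KO replicate 4 was the highest for 6 of the 10 genes, all of them secreted, granule or enzyme genes, and Mvp KO replicate 1 for 3, which were the nuclear genes. *Pcsk1* was highest in WT replicate 2. The lowest sample was Mvp KO replicate 2 for 5 genes and Mvp KO replicate 1 for 3. The shares of all genes that are highest or lowest in these samples are not given here. The counts are therefore not shown to be particular to the 10 genes.

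**Figure D3:**
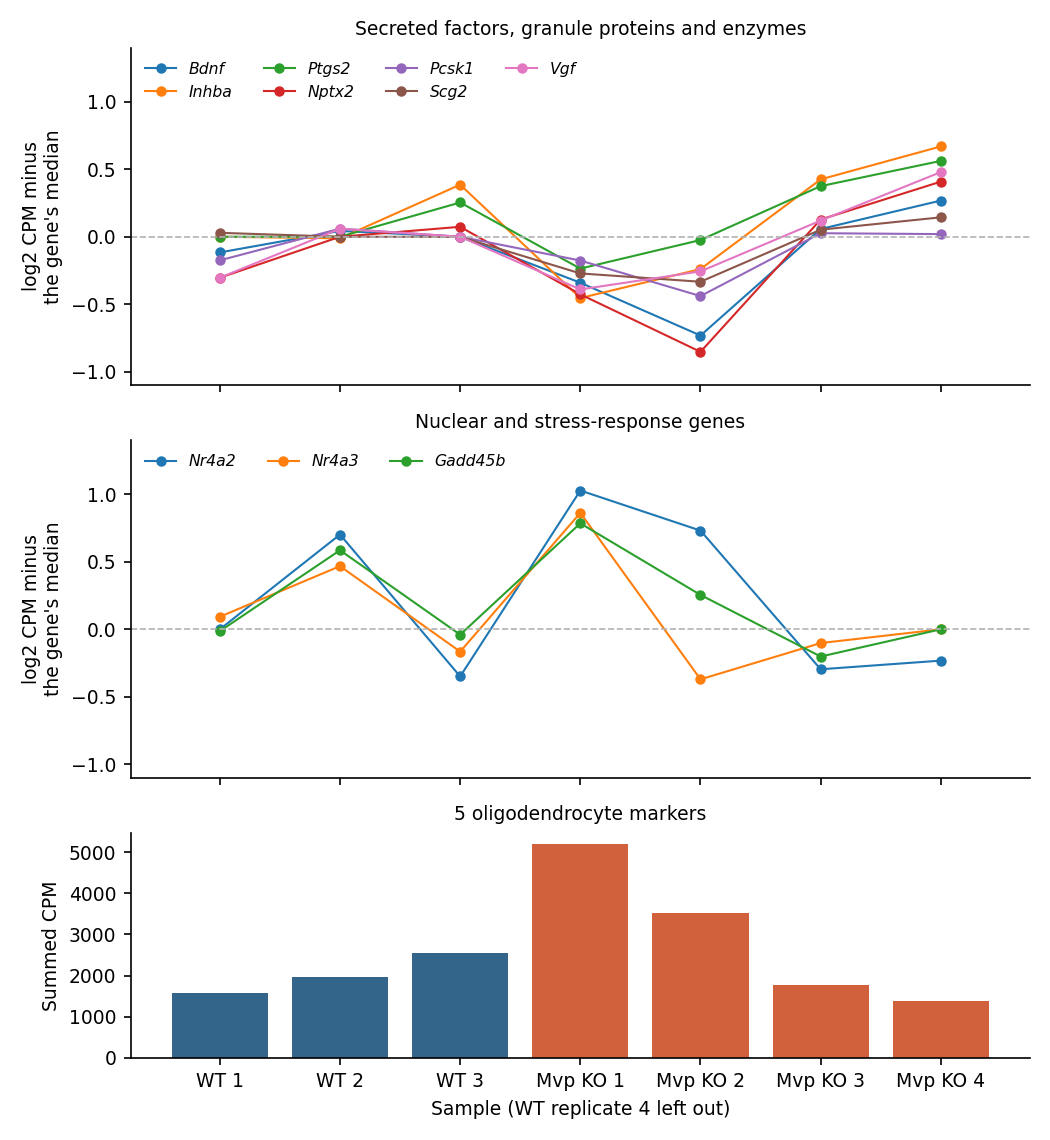
Log2 CPM of each gene minus its own median over the 7 samples without WT replicate 4, for the 7 secreted, granule and enzyme genes (top) and the 3 nuclear genes (middle), with the summed CPM of 5 oligodendrocyte markers below; lines only join the points of a gene. Each top gene has its lowest point in Mvp KO replicate 1 or 2, where *Nr4a2* and the oligodendrocyte markers are highest. *Nr4a2* is nearly as high in WT replicate 2, where the markers are not, and *Nr4a3* is lowest in Mvp KO replicate 2.

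Pearson's correlation of log2 CPM over these 7 samples was positive in 27 of 45 pairs of the 10 genes, with a median of 0.589 beside -0.001 for all pairs of genes tested. Split into the 7 secreted, granule and enzyme genes and the 3 nuclear genes, a split made after these values had been seen and for that reason not tested, 21 of 21 pairs within the first group were positive (median r = 0.854, lowest 0.556). The 3 pairs within the nuclear group had r between 0.589 and 0.927. Of the 21 pairs between the groups, 18 were negative, with a median r of -0.513 (the matrix of r between genes). Over the family of 45 pairs, 15 had an adjusted p under 0.05 by exact permutation of Pearson's r and 3 by Spearman's rho. Among the 15 were the negative pairs of *Nr4a2* with *Inhba* and with *Ptgs2* (r = -0.843). The share of all gene pairs that would pass is not given here, so these counts are not shown to be particular to the 10 genes.

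The closest pair was *Bdnf* and *Nptx2*, the neurotrophin and the pentraxin, with r = 0.978 (exact permutation p = 0.00119, adjusted p = 0.0268) and rho = 0.964 (p = 0.00278, adjusted p = 0.0417). It had r = 0.957 without the 2 samples farthest from the median of the gene named first (Mvp KO replicates 1 and 2). These samples were chosen by that gene alone and differ between pairs, so samples extreme for the other gene could remain. *Inhba* and *Ptgs2* also had r = 0.978 and rho = 0.964, and r = 0.943 without the 2 farthest samples. The most negative pair was *Inhba* and *Nr4a2*, with r = -0.900 (exact permutation p = 0.00714, adjusted p = 0.0432), rho = -0.857 (adjusted p = 0.0714) and r = -0.886 without the 2 farthest samples for *Inhba* (Mvp KO replicates 1 and 4). Mvp KO replicate 2, where *Nr4a2* was second highest, was kept. Other pairs rested on the samples left out in this way. For *Pcsk1* and *Scg2*, r = 0.820 became 0.10 without Mvp KO replicates 1 and 2. For *Nr4a3* and *Gadd45b*, r = 0.793 became -0.593 without WT replicate 2 and Mvp KO replicate 1. All pairs share the same 7 libraries and their scaling.

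**Figure D4:**
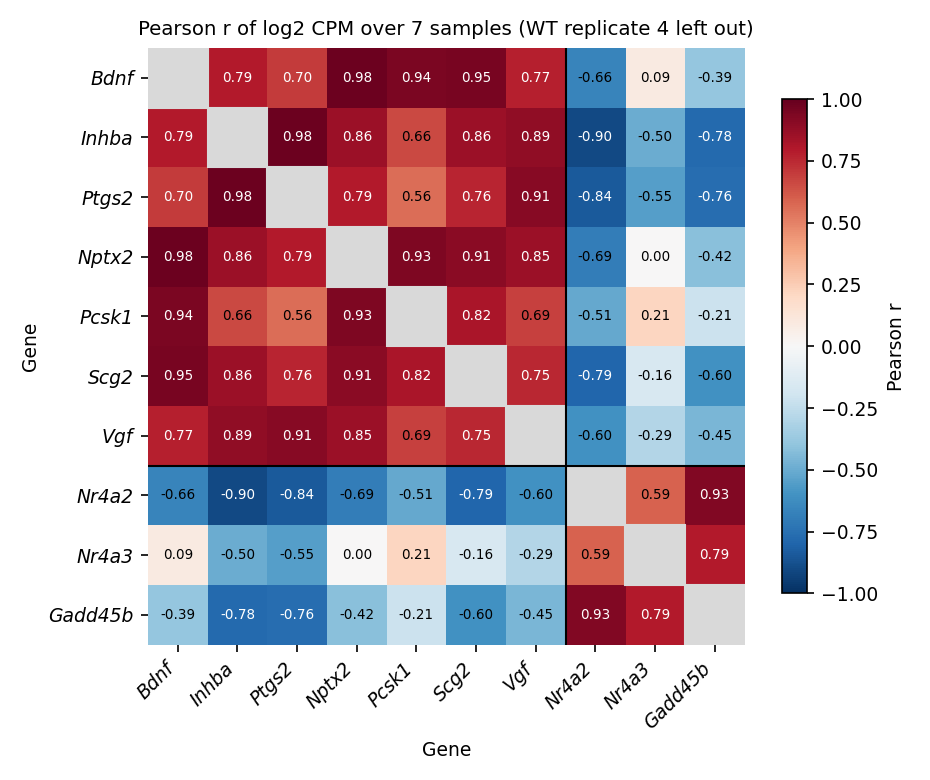
Pearson's r of log2 CPM between each pair of the 10 genes over the 7 samples without WT replicate 4, with the value in each cell and lines that divide the secreted, granule and enzyme genes from the nuclear genes. The upper left block is positive throughout, from 0.56 to 0.98, and 18 of the 21 pairs between the blocks are negative, down to -0.90.

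Markers of other cell types moved with these patterns. In WT replicate 4 the 5 markers of cortical excitatory neurons summed to 3277 CPM, compared with 1731 to 2112 in the others, and the 6 markers of GABAergic neurons to 1762 CPM, compared with 824 to 1012. Single markers of these lists went the other way: in WT replicate 4 *Neurod6* was at 94.2 CPM, below the 122 to 147 CPM of the others, *Fezf2* was at 0.837 times their median, and *Vip* was at 63.3 CPM, below 70.4 to 90.2, while *Slc17a7* alone made up 2731 CPM of the excitatory sum. The 5 oligodendrocyte markers summed to 1202 CPM there, below the 1386 to 5208 CPM of the others, and the 5 red blood cell markers to 16.99 CPM, below 24.9 to 57.1. Astrocyte markers summed to 1089 CPM in it and to between 1102 and 1270 in the others, and microglia markers to 347 and between 304 and 343. Within the other 7, the oligodendrocyte sum was 5208 CPM in Mvp KO replicate 1, 3529 in Mvp KO replicate 2 and between 1386 and 2548 in the rest. *Nr4a2* was also highest in these samples, at 47.7 and 38.9 CPM, and each gene of the secreted group was lowest in 1 of them. However, *Nr4a2* was nearly as high in WT replicate 2, at 38.1 CPM, where the oligodendrocyte sum was 1956 CPM. *Nr4a3* had its lowest level, 58.3 CPM, in Mvp KO replicate 2. None of the markers was at 0 in all samples, and their part in these results was not tested. In bulk tissue, fewer cells of a type and less RNA per cell cannot be told apart.

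The partners of each gene were read from lists of related genes, none of whose members passed an adjusted p of 0.05 for genotype. Of the 9 genes that bind, sort or process neurotrophins, *Ngfr*, the p75 receptor, was 2.98-fold above the median of the others in WT replicate 4. *Ntf3*, a neurotrophin gene and paralog of *Bdnf*, was at 0.222 CPM there, 0.104 times the median of the others, the opposite of *Bdnf*. *Ntrk2*, which encodes TrkB itself, was at 855 CPM, inside the 618 to 887 CPM of the others. *Bdnf* thus stood apart in that sample and *Ntrk2* did not, while *Ngfr* did at a low level, 2.06 CPM compared with 0.579 to 1.35.

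Among 9 activin genes, WT replicate 4 was the lowest sample for 6, against 32.5% of all genes tested. *Inhbb*, the other beta subunit in the list, was at 4.83 CPM there compared with 7.14 to 9.41 in the others. *Fst*, which encodes follistatin, a secreted antagonist of activin, was at 9.94 CPM compared with 3.41 to 6.47. *Smad2*, a signal transducer of activin receptors, was at 73.6 CPM compared with 31.6 to 37.4. *Fst* had the lowest unadjusted genotype p of this list, 0.0165 (log2 fold change -0.76 ± 0.26, adjusted p = 0.969, edgeR), and its log2 fold change was -0.46 (adjusted p = 0.9999) without WT replicate 4.

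The prostaglandin genes were mixed, and 10 of 11 were tested. *Ptgs1*, the constitutive cyclooxygenase, was at 109.7 CPM in WT replicate 4 and between 16.2 and 22.3 CPM in the others, alongside *Ptgs2*. The receptor genes *Ptger3* and *Ptger4* were 3.89- and 2.99-fold above the median of the others there. *Ptgds*, the prostaglandin D synthase of meninges and oligodendrocytes, was at 44.7 CPM there, below the 170 to 668 CPM of the others. The prostaglandin E synthases *Ptges*, *Ptges2* and *Ptges3* were all within 0.93 to 1.01 times the median of the others.

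Of 7 pentraxin and AMPA receptor genes, 0 were 2-fold from the median of the others in WT replicate 4. *Nptx1*, the paralog of *Nptx2*, was at 847 CPM there and between 362 and 576 CPM in the others. Among 10 genes of the secretory granule, 7 were highest in WT replicate 4 (29.2% of all genes were), and *Chga* (317 CPM compared with 100 to 121) and *Chgb* (969 CPM compared with 404 to 521), which encode chromogranins, were more than 2-fold up. *Pcsk2*, the other neuronal convertase, was at 773 CPM there compared with 592 to 675, so that neither convertase showed a 2-fold difference.

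*Nr4a1*, the paralog of *Nr4a2* and *Nr4a3* that belongs to the rapid early genes, was highest in WT replicate 4 at 274 CPM, compared with 86.6 to 243 in the others, unlike either of them. *Gadd45g* was at 47.2 CPM there, compared with 10.3 to 19.0, and *Tdg*, a glycosylase of DNA demethylation, at 14.4 compared with 3.89 to 6.52, while *Gadd45a* was at 9.18 compared with 6.05 to 8.71. Of 10 rapid early genes, 8 were highest in WT replicate 4, against 29.2% of all genes tested, and 6 were at least 2-fold above the median of the others there, against 4.19%. Their median log2 fold change was 0.12 with that sample, beside -2.07e-06 for all genes, and 0.67 without it, beside 0.0033, with 0 past the threshold in either fit. The value without it rested mainly on Mvp KO replicates 1 and 2, where these genes summed to 1003 and 1106 CPM. Their sum was 673 and 879 CPM in Mvp KO replicates 3 and 4, compared with 510 to 832 CPM in WT replicates 1 to 3.

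The genes whose profile over the 8 samples was nearest to the median profile of the 10 were sought among 13193 protein-coding genes, by the root mean square distance of centred log2 CPM. The 5 nearest were *Serpina3n*, an inhibitor of serine proteases (distance 0.0685), *Pabpc4*, a poly(A)-binding protein (0.0960), *Eme2*, a subunit of a structure-specific endonuclease (0.113), *Tunar* (0.115) and *Dusp4*, a phosphatase of MAP kinases (0.136). All 5 were between 3.33- and 3.996-fold above the median of the others in WT replicate 4, which sets the distance. Of the 10 genes themselves, *Scg2* was the nearest to their median profile (0.0647) and *Nr4a2* the farthest (1.17). Of the 10, *Bdnf* alone overlaps the exons of another gene: 14.41% of its exonic bases are shared with *Gm45346* on the opposite strand, to which 86 counts were assigned over the 8 samples.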

How the data were processed

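The authors made stranded, single-end libraries of polyadenylated RNA from total RNA, and discarded samples with a low RNA integrity number. They trimmed reads with cutadapt 1.10, removed ribosomal and spike-in reads with Bowtie2 2.2.8, mapped the rest to mm10 with STAR 2.5.3a and counted reads per Ensembl gene with HTSeq 0.6.1p1. The counting mode and strand setting are not given in the sources used here. The authors deposited raw counts without normalization in 1 table, whose 8 columns were all used.

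Symbols and exon lengths came from GENCODE vM21 on GRCm38, which named 53274 of 53379 identifiers, and promoter windows from RefSeq. The genotypes were compared in edgeR 4.0.16 (under R 4.3.3), using filterByExpr (minimum count 10, minimum total count 15), TMM factors, and the quasi-likelihood test with robust dispersions and genotype as the only term. The common biological coefficient of variation was 18.3%. P values were adjusted over all 16914 genes tested (Benjamini-Hochberg), and standard errors are the log2 fold change over the square root of F. Single values were compared by exact permutation over the 70 arrangements of the 8 samples, or 35 without WT replicate 4. No 2 samples of a genotype held counts close enough to be 1 library (chi-square per gene 7.00 to 95.6).

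Alternatives were DESeq2's size factors, DESeq2 1.42.0, limma 3.58.1 voom, other filters, non-robust dispersions, a replicate block, an adjusted p threshold of 0.1 and leaving out each sample. The permutation test without WT replicate 4 and the count of highest samples among the other 7 were added after the data had been seen. All fits were tested on simulated counts, except that of those leaving out a sample only the one without WT replicate 4 was. The simulated counts had the same dispersion for every gene and no library that stood apart. They therefore do not show how the fits behave with a library such as WT replicate 4. Plots were drawn with matplotlib 3.10.9, and tables were made in Python 3.11.15 using SciPy 1.17.1, NumPy 2.4.6 and pandas 2.3.3. With 28456504 to 42854368 counts per sample, the spread between samples and not counting error limits precision. The genes described and the lists were chosen with earlier results of these data known. Named were the 10 genes, *Mvp*, the genes of each list past the threshold, 2-fold from the median in WT replicate 4 or the closest paralog of one of the 10, and the 5 most alike genes. *Ntrk2*, the prostaglandin E synthases, single markers of neurons and *Fst*'s p value were added after their values were seen. An item of the marker lists is not reported here and was left out of the sums.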

Additional observations from a re-analysis of the deposited data

Results flagged for a closer look

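In groups of 4, a sample was singled out when its gap to the nearest other took a larger share of the group's range than Dixon's critical value at 95%. Of 22 groups checked (the 10 genes and *Mvp* in each genotype), 8 met it. Chance would give about 1.1 for independent groups of genes chosen without sight of these data. Neither holds here, so this is a description and not a test, and the share of all genes that meet it is not given. Of the 8, 7 were WT replicate 4, at 599.5 CPM for *Bdnf*, 320.6 for *Inhba*, 602.0 for *Ptgs2*, 1190.3 for *Nptx2*, 863.6 for *Scg2*, 321.5 for *Vgf* and 72.4 for *Gadd45b*. These values come from 1 library and are not independent of each other. The other was *Mvp* in Mvp KO replicate 3, at 2.13 CPM, compared with 1.44 to 1.51 CPM in the other Mvp KO samples and 5.49 to 7.89 CPM in WT.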

How the results depend on the processing

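Of 194 values recomputed under an alternative, 180 kept their direction and their side of the threshold or moved little. For single genes this allows large changes of size. The log2 fold changes of *Bdnf* (-1.63 to -0.11) and *Nptx2* (-2.25 to -0.037) on leaving out WT replicate 4 are among the 180. Wherever a fit gave an adjusted p, no gene of the 10 passed the threshold, with values between 0.846 and 0.9999 over the alternatives. None passed a threshold of 0.1 in the main fit either. DESeq2's own test gave no adjusted p for *Bdnf*, *Inhba*, *Ptgs2* and *Nptx2*. In that fit these genes were counted as not past the threshold, and they are among the 180, although their adjusted p is missing. WT replicate 4 decided the median log2 fold change: it was -0.75 with all samples, between -0.97 and -0.73 when any other sample was left out, and 0.031 without WT replicate 4. It was -0.035 in limma voom with quality weights, which weights samples by how far they depart from the fit. The median fold range was between 4.47 and 4.74 when any other sample was left out and 1.99 without WT replicate 4. Over the fits that each leave out 1 sample, the log2 fold change ran from -0.93 to 0.053 for *Gadd45b*, from -2.34 to 0.037 for *Inhba*, from -2.16 to 0.12 for *Ptgs2* and from -0.80 to 0.10 for *Vgf*, in each case with the positive value in the fit that left out WT replicate 4. For *Pcsk1* it ran from -0.13 to 0.018 (left out: Mvp KO replicate 2). For *Nr4a3* it ran from -0.27 (left out: Mvp KO replicate 1) to 0.19, with -0.038 when WT replicate 3 was left out. In limma voom *Ptgs2* (0.050), *Vgf* (0.098) and *Nr4a3* (-0.031) changed sign, and *Nr4a3* also did with the replicate block (-0.0070); the cause was not tested. Samples of the genotypes with the same replicate number had correlations of deviations from the group means of 0.0548, 0.287, -0.00671 and 0.0507. These were not compared with those of unlike numbers, so whether the numbers mark pairs was not tested. The replicate block gave 0 genes of the 10 past the threshold and a median of -0.50. Under all 3 scalings 7 genes were highest in WT replicate 4.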
